A study of Mus musculus with 5 samples.

Results

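Transcripts of enzymes that make, cleave and oxidise acyl-CoA were compared between kidneys of Pkd1 knockout mice and kidneys of uninduced control mice. The genes were taken by symbol, as those beginning with Acsl, Acsm, Acss, Acsbg, Acsf, Acot, Acox or Acad, and 45 of the 23997 rows of the deposited table met that rule. All tissue came from whole kidneys of mice aged 8 weeks, with 2 libraries labelled Pkd1 knockout (knockout 0 and knockout 1, called SKO in the titles) and 3 labelled as uninduced controls (control 0, control 1 and control 2). The series describes the mutants as PkdTKO and addresses the part of metalloproteinases in tubule widening. The labels name no Cre driver, no inducing agent, no strain and no sex, and they do not say whether a library came from 1 animal, so p-values measure only the spread between these libraries, which may be technical.

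A fatty acid enters metabolism once a synthetase has joined it to coenzyme A. The long-chain (Acsl), medium-chain (Acsm), short-chain (Acss) and bubblegum (Acsbg) synthetases and the further Acsf members differ in the acids they prefer and in their place in the cell. Thioesterases (Acot) split acyl-CoA back into free acid and coenzyme A. Acyl-CoA dehydrogenases (Acad) carry out the first step of each round of beta-oxidation in mitochondria, and acyl-CoA oxidases (Acox) carry out the same step in peroxisomes. Proximal tubule cells, the main cell type of the kidney cortex, rely on this oxidation for their energy.

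Values are the deposited FPKM, which divide the fragments of a gene by its transcript length and by the mapped fragments of the library. The columns summed to 493226 and 462814 FPKM in knockout 0 and 1, against 504914 to 507053 FPKM in the controls, and 12324 to 12750 rows of a library reached 1 FPKM. Pkd1 itself had 2.72 and 3.60 FPKM in knockout 0 and 1, against 3.22, 3.51 and 3.49 FPKM in control 0, 1 and 2, so its level over the whole gene does not check the labels. The markers fit kidney in every library, with 11 of 14 proximal tubule genes and all 6 podocyte genes above 0, while Lrp2, Slc34a1 and Kap were listed at 0 in all 5 libraries and Umod of the thick ascending limb in the 3 controls. The knockout libraries also differed from the controls in sex chromosome transcripts. Xist, which silences an X chromosome in females, had 30.8 and 80.3 FPKM in knockout 0 and 1, against 0.0222 to 0.0275 FPKM in the controls. The Y-linked Ddx3y had 7.30 and 0.00194 FPKM in knockout 0 and 1, against 17.8 to 18.6 FPKM in the controls. Knockout 0 held both transcripts. The labels give no sex, so genotype and the sex of the RNA cannot be told apart in any comparison between the groups.

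Of the 45 rows 37 had a mean of at least 1 FPKM over the 5 libraries and were tested, with limma on log2(FPKM + 1) fitted to all 12640 such rows. Fold changes are on that scale, knockout over control, and understate the change of low genes. Acsm2 was listed at 0 in every control and is described apart, which leaves 36 tested genes above 0 in every library. Of these Acot7 rose and 8 fell at a Benjamini-Hochberg adjusted p under 0.05. The other 27 did not pass, of which 14 had an unadjusted p under 0.05. At that unadjusted level 6 of the 36 were higher and 17 lower, against 1551 and 2099 of all 12553 tested genes above 0. The 8 that fell were Acad8, Acads, Acadvl, Acot11, Acot12, Acox3, Acsm5 and Acss2. Over all genes tested 6.34% were called, 2.73% higher and 3.62% lower. With rows listed at 0 left out these shares were 6.49%, 2.68% and 3.82%, and the same 9 genes passed. Both knockout libraries lay below every control in 20 of the 36 genes, against 26.4% of all tested genes above 0, and above every control in 8, against 21.8%. The median log2 fold change of the 36 genes was -0.29, against -0.02 for all tested genes above 0. The calls depended on which library was left out. Of the 9 genes 5 passed without knockout 0, 8 without knockout 1, 3 without control 1 (Acot7, Acot12 and Acss2) and 0 without control 0 or control 2. Their fold changes kept their sign in each case, as with Acot7, which had 1.67 without control 0 and 1.70 without control 2. With groups this small, the smallest p that an exact permutation test of a single gene allows is 0.1.

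**Figure D1:**
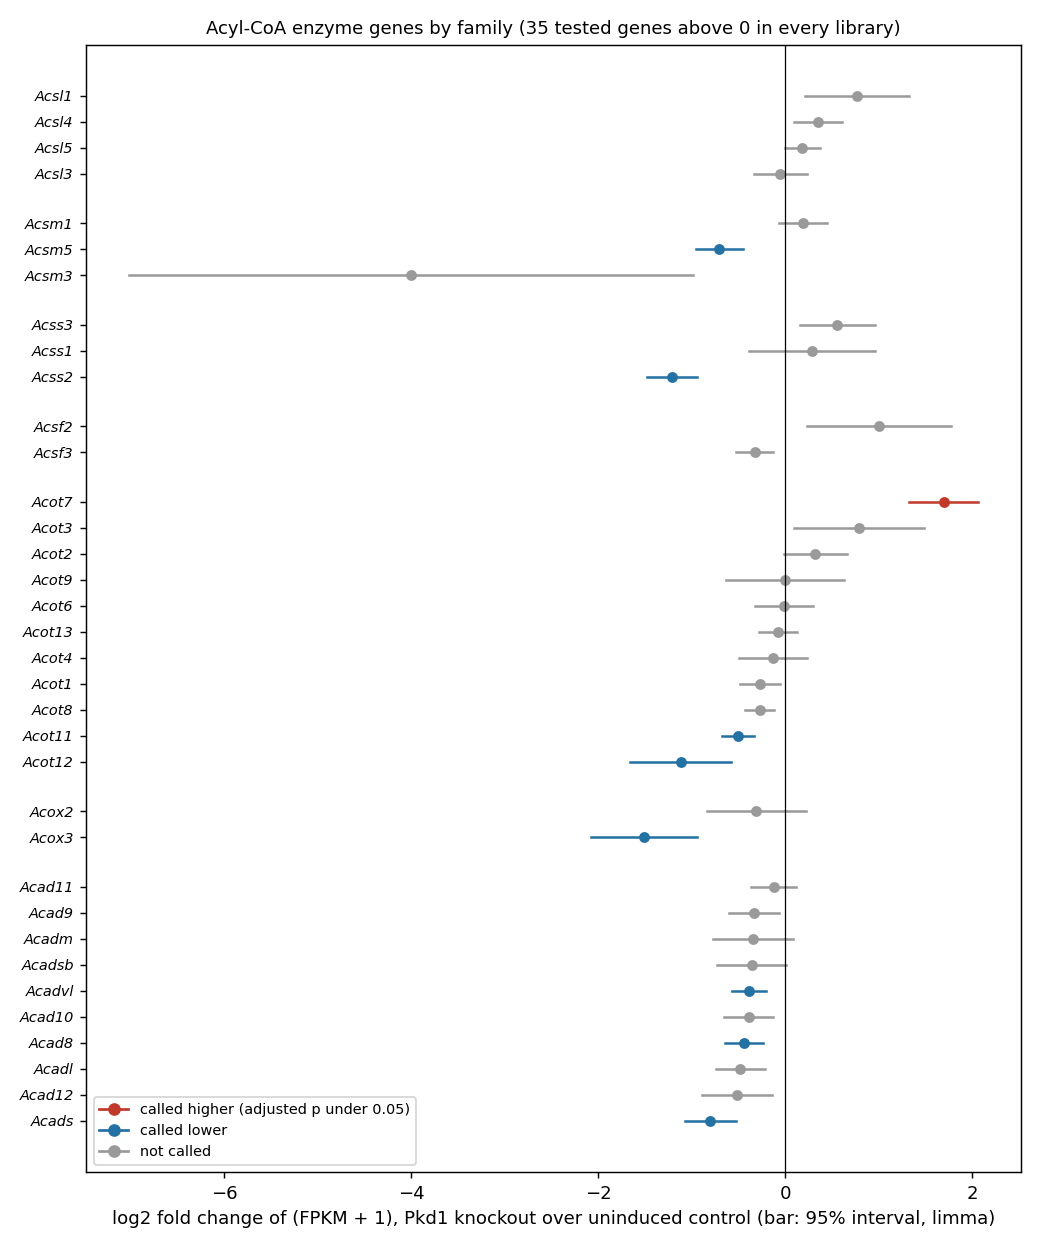
Log2 fold change of (FPKM + 1), knockout over control, with its 95% interval from limma (horizontal axis) for 35 tested genes above 0 in every library, grouped by family on the vertical axis. All 10 dehydrogenases have a point left of 0, and Acot7 alone is marked as called higher.

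The dehydrogenases were the most uniform family. All 10 Acad genes were tested, 3 fell, 0 rose and 7 did not pass. Each had a negative log2 fold change, between -0.80 and -0.12, with a median of -0.39. That sign held under each other scaling except that Acad11 had 0.04 when libraries were scaled to a common sum over rows above 0 in every library. In 9 of the 10 genes both knockout libraries lay below every control, against 26.4% of all tested genes above 0. Acad11 was the one with overlap. Acads, the short-chain acyl-CoA dehydrogenase (ENSMUSG00000029545.13, mm10 chromosome 5, 115110299 to 115119346, minus strand), had 76.2 and 63.8 FPKM in knockout 0 and 1, against 132, 115 and 120.4 FPKM in control 0, 1 and 2. It fell by 0.80 on the log2 scale (SE 0.110, limma adjusted p = 0.0266), and knockout 1 was the lowest library. Acadvl, the very-long-chain enzyme of the inner mitochondrial membrane, had 125 and 127 FPKM in knockout 0 and 1, against 169.9, 161 and 164 FPKM in control 0, 1 and 2. The fall of 0.39 (SE 0.0708, adjusted p = 0.0431) was small but larger than the spread within either group. Acad8, which oxidises isobutyryl-CoA from valine, had 22.6 and 25.8 FPKM in knockout 0 and 1, against 33.7, 32.8 and 33.0 FPKM in control 0, 1 and 2 (log2 -0.44, SE 0.0798, adjusted p = 0.0423). Its controls lay closer together than its knockout libraries.

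Acadm, the medium-chain enzyme, was the most abundant gene of the family. It had 504 and 508 FPKM in knockout 0 and 1, against 778, 531 and 635 FPKM in control 0, 1 and 2. The knockout libraries were nearly equal and lay just under control 1, while the controls spread over 1.47-fold. At -0.34 on the log2 scale (95% interval -0.77 to 0.09, adjusted p = 0.25) it did not pass. Acadl, the long-chain enzyme, had 159.5 and 165 FPKM in knockout 0 and 1, against 249, 205 and 227 FPKM in control 0, 1 and 2 (log2 -0.48, adjusted p = 0.0596). It lay below every control in both knockout libraries without passing. Acadsb, which oxidises branched short acyl-CoA from isoleucine, had 40.9 FPKM in knockout 0 and 55.5 FPKM in knockout 1, against 58.5 to 66.7 FPKM in the controls. Here knockout 0 was at 66.6% of the control mean and knockout 1 at 90.4%. The remaining Acad9, Acad10, Acad11 and Acad12 had log2 fold changes between -0.52 and -0.12. Summed over the 10 genes, the family had 1048 and 1072 FPKM in knockout 0 and 1, against 1591, 1239 and 1383 FPKM in control 0, 1 and 2.

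Among the oxidases 1 gene fell and 0 rose. Acox3, the peroxisomal oxidase of branched-chain acyl-CoA (ENSMUSG00000029098.17, mm10 chromosome 5, 35583040 to 35615352, plus strand), had 35.2 and 22.5 FPKM in knockout 0 and 1, against 96.8, 70.0 and 81.7 FPKM in control 0, 1 and 2. It fell by 1.51 on the log2 scale (SE 0.224, limma adjusted p = 0.0302), to 42.6% and 27.2% of the control mean. Acox2, which shortens the side chain of bile acid intermediates, had 39.0 FPKM in knockout 0 and 63.0 FPKM in knockout 1, against 68.9, 59.2 and 57.7 FPKM in control 0, 1 and 2. Only knockout 0 lay outside the controls for Acox2, so its groups overlapped. Acoxl did not exceed 0.0775 FPKM in any library and was not tested.

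Thioesterases went in both directions. Of 13 rows 11 were tested, of which 1 rose and 2 fell. The median log2 fold change of -0.08 turned to 0.0053 on the TPM scale and to 0.08 with a common sum. Acot7, a cytosolic long-chain thioesterase known mainly from brain (ENSMUSG00000028937.14, mm10 chromosome 4, 152178134 to 152271855, plus strand), had 49.6 and 35.5 FPKM in knockout 0 and 1, against 11.8, 12.7 and 12.3 FPKM in control 0, 1 and 2. It rose by 1.70 on the log2 scale (SE 0.146, limma adjusted p = 0.00999), with controls that differed by only 1.07-fold. Knockout 0 was at 405% and knockout 1 at 289.6% of the control mean, and no control came near either. Tubule injury markers and macrophage markers were also high in knockout 0, and their part in the result was not tested. Summed over 10 genes, the injury markers had 830 and 223 FPKM in knockout 0 and 1, against 268 to 280 FPKM in the controls, and 8 macrophage genes had 381 and 132 FPKM in knockout 0 and 1, against 89.6 to 100 FPKM in the controls. The sums were not uniform. Over the 9 tested injury markers the median log2 difference from the controls was 2.29 in knockout 0 and -0.07 in knockout 1. Havcr1 had 137 and 0.593 FPKM in knockout 0 and 1, against 0.718 to 1.12 FPKM in the controls. Clu had 86.3 FPKM in knockout 1, against 123 to 150 FPKM in the controls, and Krt8 70.5 FPKM, against 77.3 to 80.4 FPKM. Lcn2 and Krt18 lay within the controls in knockout 1. Vcam1, Cd44, Vim, Krt20 and Sox9 lay above every control in both knockout libraries.

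Acot12 and Acot11, both thioesterases with a lipid-binding START domain, fell. Acot12, which acts on acetyl-CoA in the cytosol (ENSMUSG00000021620.4, mm10 chromosome 13, 91741512 to 91786148, plus strand), had 32.7 and 28.8 FPKM in knockout 0 and 1, against 86.1, 51.7 and 69.7 FPKM in control 0, 1 and 2. The fall of 1.12 on the log2 scale (SE 0.217, adjusted p = 0.0471) put both knockout libraries under the lowest control, although the controls themselves spread over 1.67-fold. Acot11, known in mouse brown fat as a brake on fatty acid use, had 14.2 and 14.7 FPKM in knockout 0 and 1, against 20.7, 21.9 and 20.1 FPKM in control 0, 1 and 2 (log2 -0.50, SE 0.0695, adjusted p = 0.0266). The promoter of Acot12 is shown because, of the members that fell by over 1 on the log2 scale (Acox3, Acss2 and Acot12), it alone was found to hold the letters AGGTCA, the half-site bound by many nuclear receptors. It is the RefSeq window of 250 bases before to 50 bases after the gene start on GRCm38.p6, chr13:91741271-91741570, plus strand, with the match in capitals on the opposite strand.
Acot12 promoter: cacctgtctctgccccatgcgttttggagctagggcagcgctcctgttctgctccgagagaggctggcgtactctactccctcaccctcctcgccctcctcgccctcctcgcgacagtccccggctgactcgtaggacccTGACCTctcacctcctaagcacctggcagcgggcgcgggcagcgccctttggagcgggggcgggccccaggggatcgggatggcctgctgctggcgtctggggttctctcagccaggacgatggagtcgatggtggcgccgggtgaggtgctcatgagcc
On either strand AGGTCA occurs in 16.3% of the 32851 RefSeq promoter windows and in 10 of the 47 windows of the members. These belong to 8 of the 39 members that have a window. A direct repeat of AGGTCA with 1 base between the copies, the element of PPAR alpha with its partner RXR, was in 0 of the 47 windows of the members and in 0.0396% of all. With the fourth base of each copy left free it was also in 0 of the members' windows, against 0.381% of all.

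The cluster of type I thioesterases on mm10 chromosome 12 held Acot1 to Acot6, and none of its 5 tested genes passed. Acot1, the cytosolic form, had 46.4 and 50.5 FPKM in knockout 0 and 1, against 59.1, 61.8 and 54.9 FPKM in control 0, 1 and 2. Its mitochondrial neighbour Acot2 had 17.9 and 21.4 FPKM in knockout 0 and 1, against 13.3, 17.1 and 16.1 FPKM in control 0, 1 and 2. The groups did not overlap for either gene, and the log2 fold changes of -0.27 and 0.32 had opposite signs (adjusted p = 0.115 and 0.182). The coding sequences of the pair, 1257 and 1359 bases long, were identical at 85.6% of alignment columns, with gaps counted as differences. The division of fragments between them is therefore uncertain. A stretch from the middle of the alignment shows how few bases tell the copies apart there. Of 120 bases 3 differ, printed in capitals, and the stretches are coding bases 561 to 680 of Acot1 and 684 to 803 of Acot2 from GENCODE M21, counted from the start codon.
Acot1: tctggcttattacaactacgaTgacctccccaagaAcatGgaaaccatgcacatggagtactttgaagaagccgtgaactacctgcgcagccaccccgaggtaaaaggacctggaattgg
Acot2: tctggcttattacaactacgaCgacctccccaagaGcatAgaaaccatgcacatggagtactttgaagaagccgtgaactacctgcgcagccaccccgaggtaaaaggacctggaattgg
Acot3, a peroxisomal member of the cluster, had 13.5 and 20.8 FPKM in knockout 0 and 1, against 6.95, 12.7 and 9.04 FPKM in control 0, 1 and 2 (log2 0.79, adjusted p = 0.14). Its coding sequence, with gaps again counted as differences, was 81.5% identical to that of Acot1 and 83.4% to that of Acot5. Acot4 and Acot6 overlapped between the groups, with log2 fold changes of -0.13 and -0.01.

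Acot13, a small thioesterase of mitochondria, was the most abundant of the family and among the steadiest members. It had 248 and 256 FPKM in knockout 0 and 1, against 259, 280.1 and 258 FPKM in control 0, 1 and 2. Its log2 fold change was -0.08 (95% interval -0.28 to 0.13). Acot8, the broad peroxisomal thioesterase, had 20.1 and 20.3 FPKM in knockout 0 and 1, against 24.3 to 24.9 FPKM in the controls (log2 -0.27, adjusted p = 0.0616). Acot9, a mitochondrial enzyme, was split between the knockout libraries, with 47.0 FPKM in knockout 0 and 25.8 FPKM in knockout 1, against 32.3 to 38.7 FPKM in the controls. One knockout library lay above and the other below every control, and the difference between them was not tested. Acot10 is 97.2% identical to Acot9 over its coding sequence, so the values of both are uncertain, but it did not exceed 0.0665 FPKM in any library.

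Among the short-chain synthetases 1 gene fell. Acss2, which turns acetate into acetyl-CoA in cytosol and nucleus (ENSMUSG00000027605.18, mm10 chromosome 2, 155517948 to 155585724, plus strand), had 51.7 and 56.2 FPKM in knockout 0 and 1, against 141, 116 and 123 FPKM in control 0, 1 and 2. It fell by 1.21 on the log2 scale (SE 0.107, limma adjusted p = 0.011), to 40.8% and 44.4% of the control mean. Its mitochondrial counterpart Acss1 had 59.9 and 94.3 FPKM in knockout 0 and 1, against 48.5, 78.5 and 60.9 FPKM in control 0, 1 and 2, and its groups overlapped (log2 0.29, 95% interval -0.39 to 0.96). In FPKM Acss1 was above Acss2 in both knockout libraries, and Acss2 was above Acss1 in every control. Acss3, a mitochondrial enzyme that prefers propionate, had 3.30 and 5.12 FPKM in knockout 0 and 1, against 2.47 to 2.50 FPKM in the controls. It lay above the tightly grouped controls in both but did not pass (log2 0.56, adjusted p = 0.0974). The antisense transcript Acss2os was at 0.447 to 1.14 FPKM in all libraries, and its reads cannot be told apart from those of Acss2 where counting ignored strand.

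The promoter of Acss2 is shown as that of the synthetase with the smallest adjusted p among those above 0 in every library (RefSeq, GRCm38.p6, chr2:155517793-155518092, plus strand). Capitals mark a CCAAT box, the site of NF-Y, here on the opposite strand.
Acss2 promoter: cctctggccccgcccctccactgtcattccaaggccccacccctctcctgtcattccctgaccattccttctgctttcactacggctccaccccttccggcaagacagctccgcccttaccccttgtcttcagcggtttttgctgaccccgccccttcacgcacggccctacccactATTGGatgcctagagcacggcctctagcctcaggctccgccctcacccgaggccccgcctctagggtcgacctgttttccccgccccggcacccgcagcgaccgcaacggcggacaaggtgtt
CCAAT was in 37.4% of all promoter windows on either strand and in 25 of the 47 windows of the members. These belong to 22 of the 39 members with a window. The letters TCACNCCA, a core of the sterol regulatory element, were in 4.36% of all windows and in those of Acsl1 and Acsf2 among the members, not in this one.

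Acsm3, a medium-chain synthetase of the mitochondrial matrix, had the largest fold change among the 36 genes and the widest spread. It had 36.9 and 1.69 FPKM in knockout 0 and 1, against 316, 75.6 and 174 FPKM in control 0, 1 and 2. Both knockout libraries lay below every control, but the controls differed by 4.18-fold and the knockout libraries by more. The log2 fold change of -4.00 (95% interval -7.02 to -0.99) missed the threshold (limma adjusted p = 0.106). It passed without knockout 0, where knockout 1 alone gave -5.91, and did not pass without knockout 1, where knockout 0 alone gave -2.10. Knockout 1, with the lowest Acsm3, was the library with the least Ddx3y. Of 7 genes above 0 known to depend on androgen in mouse kidney 1 fell and 0 rose, against 3.62% lower and 2.73% higher of all genes tested. Their part in the result was not tested. The gene that fell was Cyp7b1, a sterol hydroxylase, with 4.05 and 1.80 FPKM in knockout 0 and 1, against 115, 20.7 and 73.7 FPKM in control 0, 1 and 2 (adjusted p = 0.0455). Slco1a1, an organic anion carrier, had 31.2 and 0.0422 FPKM in knockout 0 and 1, against 104, 14.2 and 58.0 FPKM in control 0, 1 and 2. Knockout 0 lay above control 1 here, and Slco1a1 did not pass. Slc7a13, an amino acid carrier of the proximal straight tubule, which did not pass either, had 175 and 1.83 FPKM in knockout 0 and 1, against 631, 306 and 524 FPKM in control 0, 1 and 2. Over the 7 genes of that list above 0 in every library, the summed level was 803 and 307 FPKM in knockout 0 and 1, against 1563, 687 and 1159 FPKM in control 0, 1 and 2, with Kap and Cyp4b1 left out as listed at 0. The sum of knockout 0 was above that of control 1, and Odc1 of that list had a positive log2 fold change (0.21).

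Acsm3 lies on mm10 chromosome 7 from 119760923 to 119787513, plus strand (ENSMUSG00000030935.15), at the end of a cluster with Acsm5, Acsm2, Acsm1 and Acsm4. Its RefSeq promoter (GRCm38.p6, chr7:119760673-119760972, plus strand) is shown because Acsm3 had the largest difference. Capitals mark 2 CCAAT boxes.
Acsm3 promoter: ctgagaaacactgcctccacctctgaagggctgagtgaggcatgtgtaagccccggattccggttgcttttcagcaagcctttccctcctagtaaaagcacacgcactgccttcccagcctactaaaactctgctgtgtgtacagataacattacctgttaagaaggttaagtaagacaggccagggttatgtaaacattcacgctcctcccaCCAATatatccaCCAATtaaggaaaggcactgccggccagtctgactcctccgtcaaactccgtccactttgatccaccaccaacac
An inverted repeat bound by the androgen receptor (AGAACA, 3 free bases, then TGT) was in 0.414% of all windows and in 0 of the members' windows. A window without these letters says nothing of sites elsewhere.

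Of its neighbours in the cluster Acsm5 fell and Acsm1 did not pass. Acsm5 had 30.5 and 34.3 FPKM in knockout 0 and 1, against 49.6, 58.5 and 52.2 FPKM in control 0, 1 and 2 (log2 -0.71, SE 0.101, limma adjusted p = 0.0278), with no overlap between the groups. Acsm1 lies between them and had the highest mean over the 5 libraries of the tested Acsm genes above 0 in every library. It had 133 and 148 FPKM in knockout 0 and 1, against 135, 115 and 119 FPKM in control 0, 1 and 2. Its groups overlapped and its log2 fold change was 0.19 (95% interval -0.07 to 0.45). The exons of Acsm3 and Acsm5 overlap those of Eri2 and Pdilt on the opposite strand, and 21 of the 45 members share exon bases with another gene, so these values are uncertain where counting ignored strand.

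Long-chain synthetases did not fall. Of 5 rows 4 were tested by limma, 0 passed and 2 had an unadjusted p under 0.05, both higher. Above every control in both knockout libraries lay 3, against 21.8% of all tested genes above 0. Acsl1, the main long-chain synthetase of oxidative tissues, had 97.9 and 162 FPKM in knockout 0 and 1, against 69.1, 81.2 and 70.3 FPKM in control 0, 1 and 2. Knockout 1 was at 220% of the control mean and knockout 0 at 133%, a difference of 0.77 on the log2 scale (95% interval 0.22 to 1.33, adjusted p = 0.0975). Acsl4, which prefers arachidonic acid, had 16.5 and 20.5 FPKM in knockout 0 and 1, against 13.9 to 14.4 FPKM in the controls (log2 0.35, adjusted p = 0.101). It lies on the X chromosome, as does Acot9. Acsl5, a mitochondrial and endoplasmic reticulum enzyme, had 49.5 and 45.1 FPKM in knockout 0 and 1, against 40.3 to 42.2 FPKM in the controls. Acsl3, found on lipid droplets, overlapped between the groups at 9.14 and 11.4 FPKM in knockout 0 and 1, against 9.80 to 11.3 FPKM in the controls. Of the adipocyte markers, Adipoq had 0.0569 and 0.515 FPKM in knockout 0 and 1, against 1.29 to 2.77 FPKM in the controls. The 7 markers above 0 summed to 108 and 99.7 FPKM in knockout 0 and 1, nearly all of it Fabp4, against 115 to 130.2 FPKM in the controls, and Cfd was listed at 0.

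The pair of Acsf genes had opposite signs. Acsf2, a mitochondrial synthetase of medium-chain acids, had 14.6 and 21.8 FPKM in knockout 0 and 1, against 5.55, 11.2 and 9.46 FPKM in control 0, 1 and 2 (log2 1.00, SE 0.306, 95% interval 0.24 to 1.77, adjusted p = 0.108). Acsf3, which loads malonate onto coenzyme A for mitochondrial fatty acid synthesis, had 29.8 and 29.6 FPKM in knockout 0 and 1, against 39.0, 34.9 and 38.8 FPKM in control 0, 1 and 2 (log2 -0.33, 95% interval -0.52 to -0.13, adjusted p = 0.069). Neither passed, and neither overlapped between the groups.

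**Figure D2:**
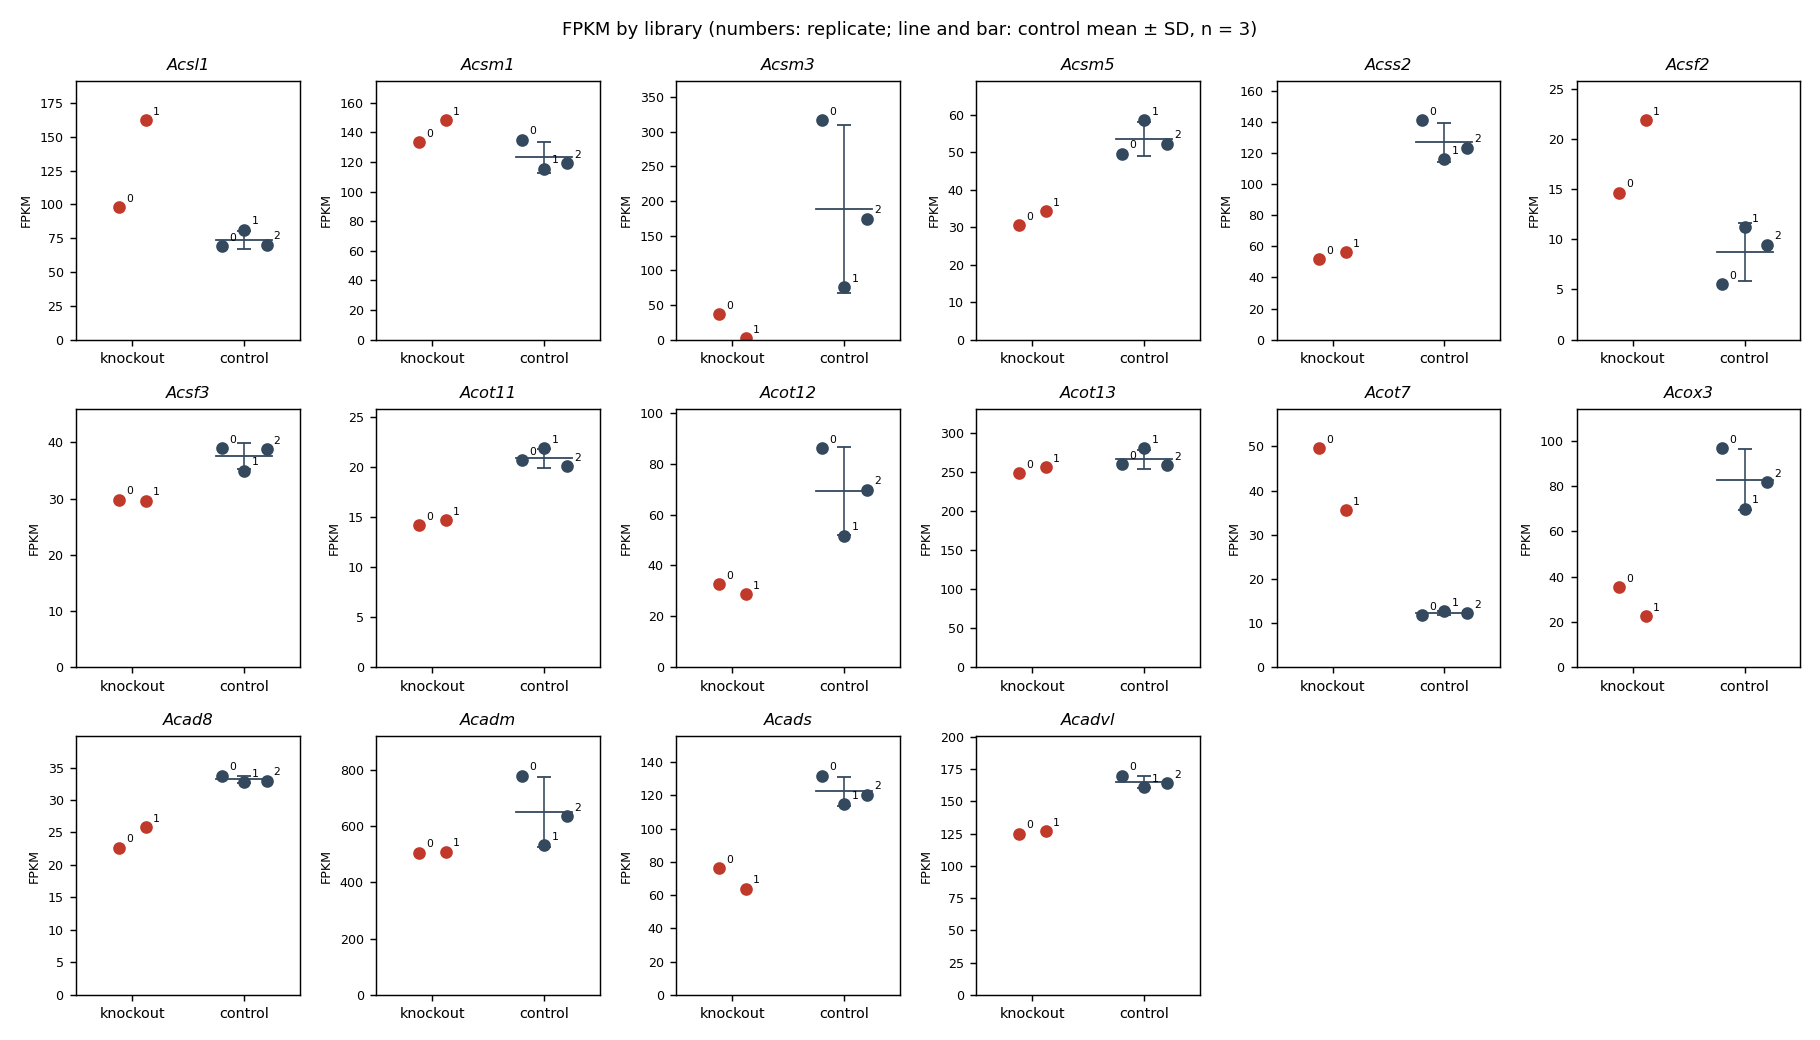
FPKM (vertical axis, from 0) in each library for 16 genes, with knockout libraries left and control libraries right, numbers giving the replicate and bars the control mean ± SD (n = 3). Acot7 is the only one called higher, Acss2 and Acox3 lie far under their controls in both knockout libraries, and Acsm3 ranges from 1.69 FPKM in knockout 1 to 316 FPKM in control 0.

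Rows with an exact 0 were Acsm2, Acsm4 and Acsbg2. Acsm2, a medium-chain synthetase of the proximal tubule (ENSMUSG00000030945.17, mm10 chromosome 7, 119554340 to 119600690, plus strand), was listed with 385 and 266 FPKM in knockout 0 and 1, and at 0 in control 0, 1 and 2. It passed the test, but Gapdh, a gene that every cell uses, is also listed at 0 in all 3 controls, so no fold and no direction are given. Acsm4, a synthetase of olfactory tissue, was listed at 0.0102 and 0.00219 FPKM in knockout 0 and 1, and at 0.00292, 0 and 0 FPKM in control 0, 1 and 2. Acsbg2, a testis gene, was at 0 in knockout 0 and 1, and at 0.00237, 0.00218 and 0 FPKM in control 0, 1 and 2. The other 6 rows under 1 FPKM on average were Acot5, Acot10, Acoxl, Acsbg1, Acsl6 and Acss2os. Acsbg1, known from brain and adrenal gland, had 0.817 and 0.358 FPKM in knockout 0 and 1, against 0.207 to 0.224 FPKM in the controls.

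The controls were not alike in these genes, and their order recurred. Control 2 lay between control 0 and control 1 in 28 of the 36 genes (77.8%), against 49% of all tested genes above 0. In 21 of the 36 (58.3%) both knockout libraries also lay beyond control 1, away from control 0, against 15.6% of all. The reverse, with both beyond control 0, was seen for Acsm5 alone (2.78%), against 8.02% of all. The same was measured without a shared library, by setting the difference of control 1 from control 0 beside that of the knockout mean from control 2. The signs were equal in 26 of 36 genes (72.2%), against 57% of all 12553 tested genes above 0. Pearson's r across the 36 genes, which are not independent and share these libraries, was 0.82, or 0.64 without Acsm3, against 0.38 across all genes. Acox3, Acot12, Acadm and Acsm3 were high in control 0, and Acsf2, Acot3 and Acss1 were high in control 1. Control 2 lay between the others also in 7 of 7 androgen-dependent and 4 of 4 female-biased genes, but likewise in 6 of 6 podocyte, 7 of 8 fibroblast and mural cell and 7 of 9 tubule injury genes, and in 1 of 6 endothelial genes. Of the 4 female-biased genes 3 rose and 0 fell, against 2.73% higher and 3.62% lower of all genes tested. All 4 lay above every control in both knockout libraries, against 21.8% of all tested genes above 0. Among them Slc7a12 was at 108 and 181 FPKM in knockout 0 and 1, against 16.1, 27.4 and 19.9 FPKM in control 0, 1 and 2. Abcc3 was at 18.1 and 24.2 FPKM in knockout 0 and 1, against 0.815 to 1.16 FPKM in the controls (log2 3.48, limma adjusted p = 0.000588). The part of these lists in the order of the enzymes was not tested.

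**Figure D3:**
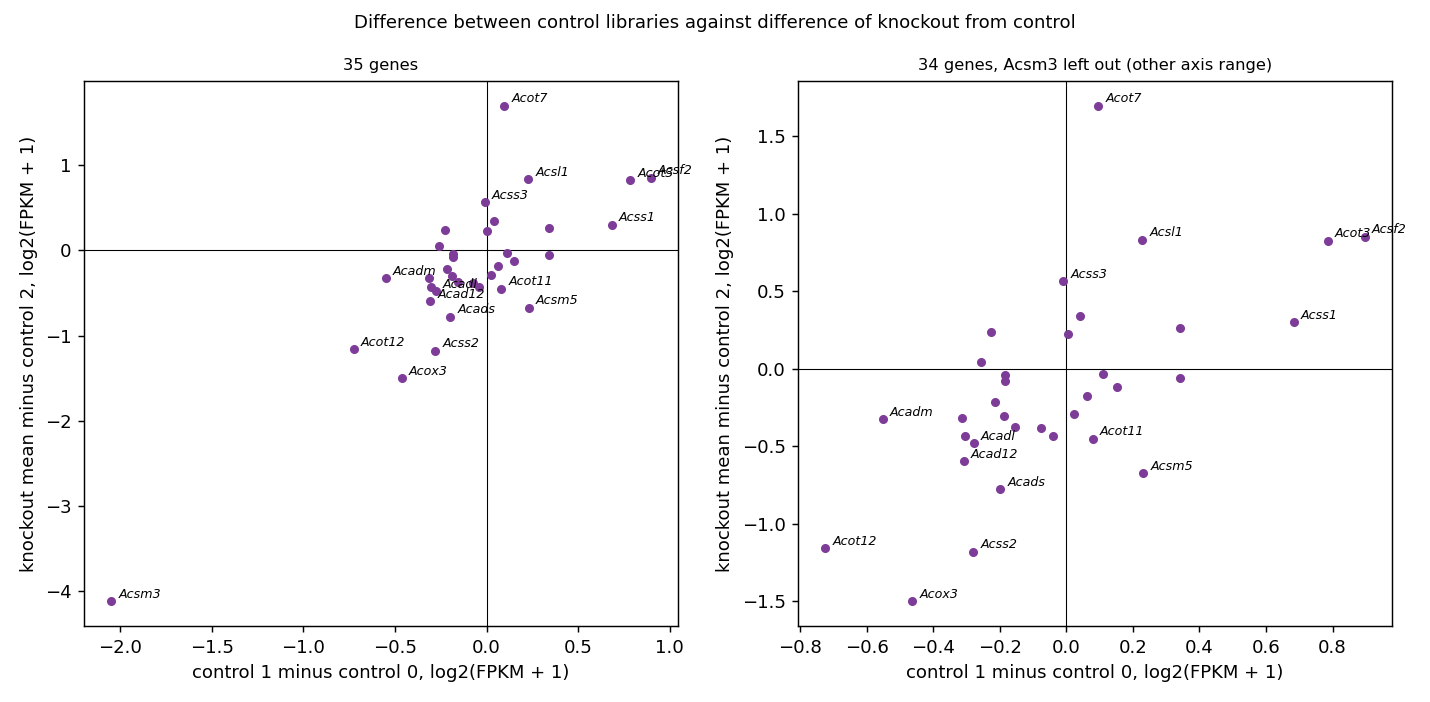
Each point is a gene, with the log2(FPKM + 1) difference of control 1 from control 0 on the horizontal axis and that of the knockout mean from control 2 on the vertical axis, for 35 genes (left) and without Acsm3 (right). Of 35 points 25 have the same sign on both axes, and Acsm3 stands apart at the lower left.

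Other genes of fatty acid oxidation, taken from a fixed list that the symbols do not cover, mostly had values on the same side as the dehydrogenases. Of 23 tested genes of mitochondrial beta-oxidation and of the carriers that feed it, 6 fell, 0 rose and 17 did not pass, with a median log2 fold change of -0.36. Of all genes tested 3.62% fell and 2.73% rose. In the list 21 fold changes were negative and 2 positive. Acat1, a thiolase of ketone bodies and isoleucine, had 156 and 121 FPKM in knockout 0 and 1, against 321, 254 and 271 FPKM in control 0, 1 and 2 (log2 -1.02, limma adjusted p = 0.0307). Mlycd, which breaks down the malonyl-CoA that restrains fatty acid entry into mitochondria, had 25.9 and 26.3 FPKM in knockout 0 and 1, against 43.3, 36.4 and 39.5 FPKM in control 0, 1 and 2 (adjusted p = 0.033). Eci1, an enoyl-CoA isomerase, had 117 and 116 FPKM in knockout 0 and 1, against 198, 187 and 173 FPKM in control 0, 1 and 2 (adjusted p = 0.0254). The entry enzyme Cpt1a had 91.6 and 78.4 FPKM in knockout 0 and 1, against 108, 96.5 and 94.6 FPKM in control 0, 1 and 2, and did not pass (adjusted p = 0.218). Of the related dehydrogenases Gcdh and Ivd, Gcdh fell, with 142 and 167 FPKM in knockout 0 and 1, against 235, 227 and 210.2 FPKM in control 0, 1 and 2.

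The share of all tested genes called was 3.62% lower and 2.73% higher. Among 16 tested peroxisomal enzymes outside the rule 3 fell, 0 rose and 13 did not pass (median log2 fold change -0.29). They were Phyh, the hydroxylase of phytanic acid, Crot, which moves shortened acids onto carnitine, and Amacr, the racemase that prepares branched acids for the oxidases. Phyh had 296 and 278 FPKM in knockout 0 and 1, against 599, 504 and 538 FPKM in control 0, 1 and 2 (log2 -0.92, limma adjusted p = 0.0198). Crot had 106 and 69.8 FPKM in knockout 0 and 1, against 297, 203 and 236 FPKM in control 0, 1 and 2 (adjusted p = 0.0337), and Amacr fell by 1.37 on the log2 scale (adjusted p = 0.0433).

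Of 10 tested targets of PPAR alpha, the nuclear receptor that induces fatty acid oxidation, 2 rose, 0 fell and 8 did not pass (median 0.08). Fold changes were positive for 5 and negative for 5, and of all genes tested 2.73% rose and 3.62% fell. Fabp1, a fatty acid binding protein, had 12.04 and 43.3 FPKM in knockout 0 and 1, against 0.535, 1.61 and 0.858 FPKM in control 0, 1 and 2, and Cyp4a14, also female-biased in mouse kidney, had 104 and 256 FPKM in knockout 0 and 1, against 34.5, 46.3 and 38.8 FPKM in control 0, 1 and 2. Cyp4a12a and Angptl4 had negative log2 fold changes of -1.65 and -1.34, did not pass, and overlapped between the groups. The median log2 difference of the 10 targets from the controls was 0.35 in knockout 0 and -0.11 in knockout 1. Of 12 regulators 0 passed by limma and 2 had an unadjusted p under 0.05. Ppara itself had 18.1 and 21.2 FPKM in knockout 0 and 1, against 17.7 to 18.3 FPKM in the controls, and its coactivator Ppargc1a had 13.0 and 20.96 FPKM in knockout 0 and 1, against 16.5 to 17.9 FPKM in the controls. Proximal tubule markers were lower in sum, with 3264 and 3220 FPKM in knockout 0 and 1 over 11 genes above 0, against 4363 to 4930 FPKM in the controls, although 0 of 11 passed (2 higher and 5 lower at an unadjusted p under 0.05) and their median log2 fold change was -0.32. Cubn, a receptor for filtered proteins, went the other way at 50.9 and 61.1 FPKM in knockout 0 and 1, against 38.2 to 42.1 FPKM in the controls, and so did the anion carrier Slc22a8 at 253 and 337 FPKM in knockout 0 and 1, against 174 to 203 FPKM in the controls. Slc7a13, also listed as androgen-dependent, was part of that sum at 175 and 1.83 FPKM in knockout 0 and 1, against 306 to 631 FPKM in the controls. Markers of other cells differed too, with 0 called. All 7 collecting duct markers had a negative log2 fold change (median -0.44), and all 8 fibroblast and mural cell genes a positive one (median 0.68). Medians were 0.01 for 6 podocyte and 0.18 for 6 endothelial genes. In whole tissue fewer proximal tubule cells and less RNA per cell cannot be told apart, and the part of these markers in the values of the enzymes was not tested.

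**Figure D4:**
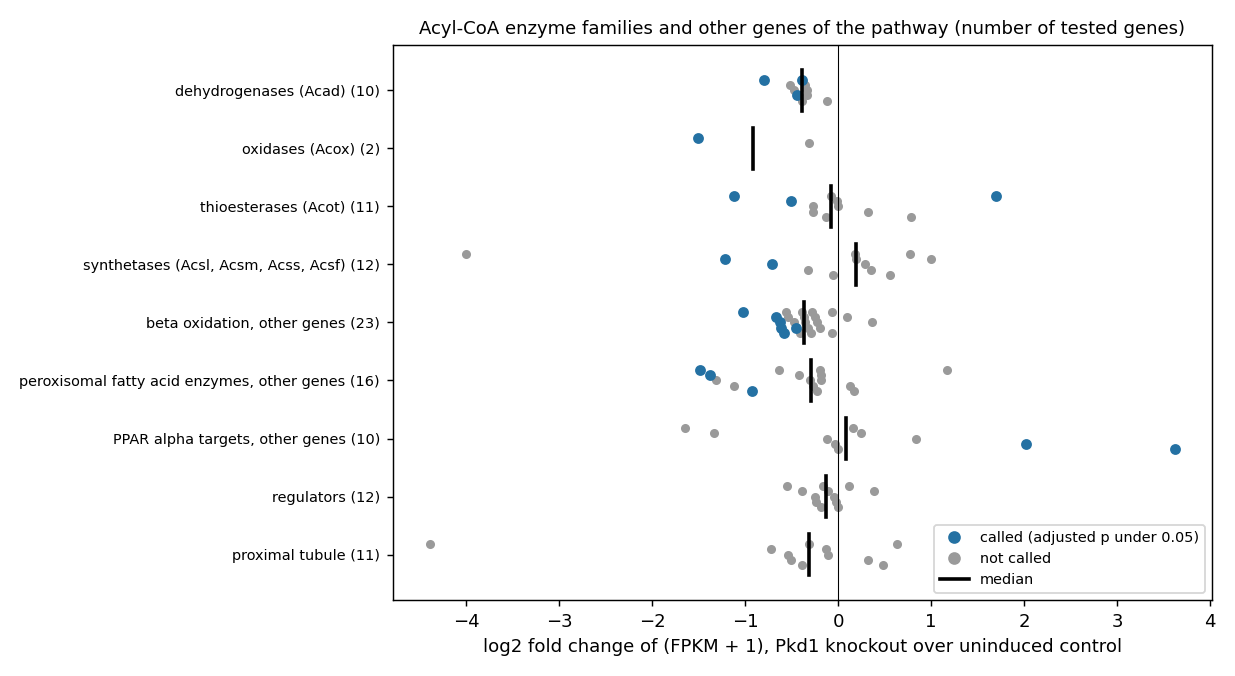
Log2 fold change of (FPKM + 1), knockout over control (horizontal axis), for tested genes above 0 in every library, by enzyme family and by list of other genes (vertical axis, number of genes in brackets), with a vertical bar at each median. The medians of the dehydrogenases (-0.39) and of the other beta-oxidation genes (-0.36) lie left of 0, while that of the PPAR alpha targets lies at 0.08.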

How the data were processed

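RNA from whole kidneys was measured in 2 Pkd1 knockout and 3 uninduced control libraries. TRIzol extracts of total RNA were made into mRNA libraries with an Illumina kit, per the labels' protocols. The authors deposited FPKM, 1 column per library (0 value columns were left unmapped). The mm10 build and bcl2fastq are named in the submitters' processing notes. The sources used here do not name the aligner, the FPKM program, the annotation or the strandedness. Depth is not stated. Among rows under 0.05 FPKM the most frequent ratio to control 0 was 0.879 in knockout 0 (34 of 1308 rows) and 0.749 in knockout 1 (31 of 1720). It was 0.916 in control 1 (279 of 1797) and 0.745 in control 2 (24 of 1629). Relative depth was not read from these ratios.

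FPKM are not counts, so limma 3.58.1 in R 4.3.3 (variance trend, two-sided) was fitted to log2(FPKM + 1) of the 12640 rows with a mean of at least 1 FPKM, with Benjamini-Hochberg adjustment over all of them and a threshold of 0.05. The fit was tested on simulated data with independent noise for each gene and library. Those data lacked the order of the controls seen here, so that test says nothing of the error rate of these calls. Of the tested rows 87 held an exact 0, and genes with one got no fold. Gene positions and coding sequences came from GENCODE M21, where all 45 symbols occur once, and promoters from RefSeq, which had a window for 39. Coding sequences were aligned with Biopython 1.88. No protein table was used, so identity was taken from coding sequences, with gaps counted as differences. Named were members that passed, those with a log2 fold change of at least 1 in size and the most abundant of each family. Acot1, Acot2, Acot3, Acot8, Acot9, Acox2, Acss1, Acss3, Acsl3, Acsl4, Acsl5, Acadl, Acadsb, Acsbg1, Cpt1a, Ppara, Ppargc1a, Slco1a1, Slc7a13, Slc7a12, Adipoq, Gapdh, Baat, Dbi, Cubn, Slc22a8, Odc1, Clu, Vcam1, Cd44, Vim, Krt20, Sox9, Havcr1, Lcn2, Krt8, Krt18, Cyp4a12a and Angptl4 were named after their values were seen. The values of 1 member are not reported here, though it stays in the fit and the counts. The members, lists and motifs were chosen with earlier results of these data known. Tables were handled with Python 3.11.15 and pandas 2.3.3.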

Additional observations from a re-analysis of the deposited data

How the results depend on the processing

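Over all genes 802 passed, against 482 with no filter on low values, 28 with the replicate number as a block and 2044 at an adjusted p under 0.1. The common-sum scaling called 806 higher and 228 lower, against 345 and 457 unscaled, and moved the median log2 difference of all genes to 0.12. Relative to the median of all genes, that of the dehydrogenases was -0.36 with the common sum and -0.37 unscaled. Rescaling to TPM called 454 higher and 266 lower. With 1 library left out the count over all genes ran from 36 to 2599. With rows listed at 0 left out as well, an alternative chosen after seeing the data, 1710 and 3029 genes passed without knockout 0 and knockout 1. Without control 0, control 1 and control 2 it was 0, 138 and 0, and 2393, 2903 and 2147 genes had an unadjusted p under 0.05 by limma.

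Of the 37 tested members 10 passed, with 2 counted as higher and 8 as lower. Acsm2 is among those counted as higher from its listed values, from which no direction is read, so that only Acot7 of the 2 has one. Quantile normalization left 6, of which 4 were lower, and an adjusted p under 0.1 gave 17, of which 4 were higher and 13 lower. The lower calls were 5 with no filter, 5 on the TPM scale and 4 with the common sum. With rows listed at 0 left out 1 was higher. With the replicate block 1 passed, Acsm2, and 0 were lower. The deviations of same-numbered libraries correlated at 0.128 and 0.0185. The deviations of 2 knockout libraries mirror each other, so these values cannot decide whether the numbers pair the libraries. With 1 library left out the members called ran from 1 to 13, 1 to 5 higher and 0 to 10 lower, and with rows listed at 0 left out as well from 0 to 15 (3 without control 1), 0 to 4 and 0 to 13. Where 1 knockout library remains, its spread is taken to be that of the controls.

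The 9 called members above 0 kept their sign under all 21 alternatives each. Signs turned with the common sum for Acad11 (0.0351), Acot13 (0.0818), Acot4 (0.0276), Acot6 (0.116) and Acsl3 (0.0942), on the TPM scale for Acot13 (0.00533), Acot6 (0.0643) and Acsl3 (0.0248), after quantile normalization for Acot13 (0.103), with median-of-ratios scaling for Acot6 (0.0096), and with the replicate block for Acot6 (0.0175) and Acot9 (-0.019). With 1 library left out, with or without rows listed at 0, the log2 fold change ran from -0.352 to 0.1002 for Acot4, from -0.106 to 0.0654 for Acot6 (0.0175 without control 2 and 0.034 without knockout 0), from -0.418 to 0.423 for Acot9 (-0.0506 without control 1), from -0.648 to 0.0279 for Acox2, from -0.197 to 0.095 for Acsl3 and from -0.0367 to 0.609 for Acss1. None of these 8 genes passed with all libraries, and the cause of each turn was not tested.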

Other observations

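Genes of the same reactions under other symbols gave a mixed picture. Of 6 tested thioesterases 1 rose and 0 fell: Them6 had 26.7 and 24.6 FPKM in knockout 0 and 1, against 10.5, 15.0 and 13.3 FPKM in control 0, 1 and 2 (limma adjusted p = 0.0337). Baat, which joins bile acids to amino acids, had 3.81 and 7.17 FPKM in knockout 0 and 1, against 0.816, 1.94 and 1.39 FPKM in control 0, 1 and 2, and did not pass (adjusted p = 0.0545). Among the fatty acid transport proteins, which are also acyl-CoA synthetases, Slc27a2 was listed with 1204 and 1138 FPKM in knockout 0 and 1, and at 0 in every control, as Acsm2 was. Of the 5 others of that list above 0 that were tested, 0 passed by limma (2 at an unadjusted p under 0.05). The acyl-CoA binding protein Dbi had 1537 and 1237 FPKM in knockout 0 and 1, against 1530, 1595 and 1450.0 FPKM in control 0, 1 and 2, and 0 of 5 tested genes of its list passed (2 at an unadjusted p under 0.05).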
